A study of Mus musculus with 10 samples.

Results

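Oligodendrocytes and the myelin they make were followed here through 41 genes, taken from a list of myelin structural proteins, myelin lipid enzymes, lineage transcription factors, junction and adhesion proteins, and markers of newly formed oligodendrocytes and their progenitors. Each gene was found among the 53700 gene identifiers of the count tables by its symbol in the GENCODE mouse annotation, and all 41 had a total count over 10 across the libraries, as did 19268 genes in all. The lowest total was 171, for Gal3st1. Tmem88b stood under a different symbol, Tmem278, in the annotation and was matched through the position of its promoter.

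The libraries were QuantSeq 3′ libraries, which count reads near the polyadenylated end of each transcript, from the brain cortex of female mice aged 4 months. All 10 carried the 5XFAD transgenes, which lead to amyloid plaques in the brain and model Alzheimer's disease, and the study bred them with mice bearing floxed Idol alleles. The sample titles give Camk2a-cre WT for the 5 libraries labelled 5XFAD and Camk2a-cre cKO for the 5 labelled 5XFAD;Neu cKO. Whether WT there refers to Cre or to Idol is not given in the titles. The cKO is the conditional knockout of Idol, also called Mylip, a ubiquitin ligase that marks lipoprotein receptors for degradation. Camk2a-cre acts in excitatory neurons of the forebrain, not in oligodendrocytes. No library came from mice without the 5XFAD transgenes. The controls were littermates by the study's methods. The libraries are numbered by replicate within each group, and p-values measure the spread between these libraries.

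Oligodendrocytes arise from progenitors that divide throughout life, pass through a short premyelinating stage, and then wrap axons in layers of membrane that let impulses jump from node to node. Myelin is rich in cholesterol and galactolipids and holds a small set of abundant proteins, so a mature oligodendrocyte devotes much of its transcription to a few genes. In the cortex these cells lie densest in the deep layers and in the white matter beneath them. In bulk tissue, fewer oligodendrocytes and less RNA per oligodendrocyte cannot be told apart.

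Reads counted on genes ranged from 4320504 to 7466192 in the libraries labelled 5XFAD and from 5148499 to 7246659 in those labelled 5XFAD;Neu cKO, a difference with p = 0.405 in an exact two-sided permutation test. The mitochondrial share of the counted reads had a median of 23.5% (20.9% to 25.1%) in 5XFAD and of 20.5% (20.2% to 24.7%) in 5XFAD;Neu cKO (p = 0.111, same exact test). Mylip, the targeted gene, was counted 45 to 108 times in 5XFAD and 50 to 148 times in 5XFAD;Neu cKO. Its level was 14.8 ± 4.90 CPM (reads scaled to a common library size) in 5XFAD;Neu cKO and 11.2 ± 2.27 CPM in 5XFAD (mean ± SD, n = 5), a log2 fold change of 0.39 ± 0.25 (SE), with an exact two-sided permutation p of 0.246. A loss of Mylip was thus not seen in the libraries labelled 5XFAD;Neu cKO. Where the deleted part lies relative to the 3′ reads is not given in the sources used here, so these counts may not bear on the labels. All directions below are between libraries as they are labelled.

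Between libraries labelled 5XFAD;Neu cKO and libraries labelled 5XFAD, 35 of the 41 genes had a log2 fold change below 0 and 6 had one above 0. Over all genes tested, 50.1% were below 0, and 50.4% of the 12342 genes whose mean level lay in the range of the 41, 3.07 to 1089 CPM. The median over the 41 genes was -0.20 on the log2 scale, against -0.00056 over all genes. Single genes were compared by edgeR's quasi-likelihood test, with p-values adjusted by the Benjamini-Hochberg method over all 19268 genes. One of the 41, Mal, fell past the adjusted threshold of 0.05, where 0.161% of all genes fell, 0.0571% rose and 0.218% changed in either direction. At an unadjusted p under 0.05, 16 of the 41 were lower, beside 4.01% of all genes, and 2 were higher, beside 3.94%. Among the 12342 genes in the same range of levels, 4.59% were lower at that threshold.

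The groups overlapped for all 41 genes. Over all genes they did not overlap for 0.721% with 5XFAD;Neu cKO lower and for 0.576% with it higher. The exact two-sided permutation test, which uses no spread borrowed from other genes, gave an unadjusted p under 0.05 for 5 of the 41 with 5XFAD;Neu cKO lower (Mobp, Mal, Pllp, Myrf and Bcas1) and for 0 with it higher, beside 3.4% and 3.27% of all genes. DESeq2 called 2 of the 41, Mal and Bcas1, at an adjusted p under 0.05, beside 1.25% of the genes to which it gave one, and it gave none to 18 of the 41. At an unadjusted p under 0.05 DESeq2 had 11 of the 41 lower, beside 3.74% of all genes. The count of genes lower at an unadjusted p under 0.05 rested in part on single libraries. It was 9 of 41 without 5XFAD replicate 2, with a median of -0.14, and also 9 of 41 without 5XFAD;Neu cKO replicate 4, with a median of -0.19. Over all 19061 genes in the fit without 5XFAD replicate 2, 621 were lower at that p. The matching count over all genes was not taken without 5XFAD;Neu cKO replicate 4, so no share stands beside the 9 of 41 there.

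**Figure D1:**
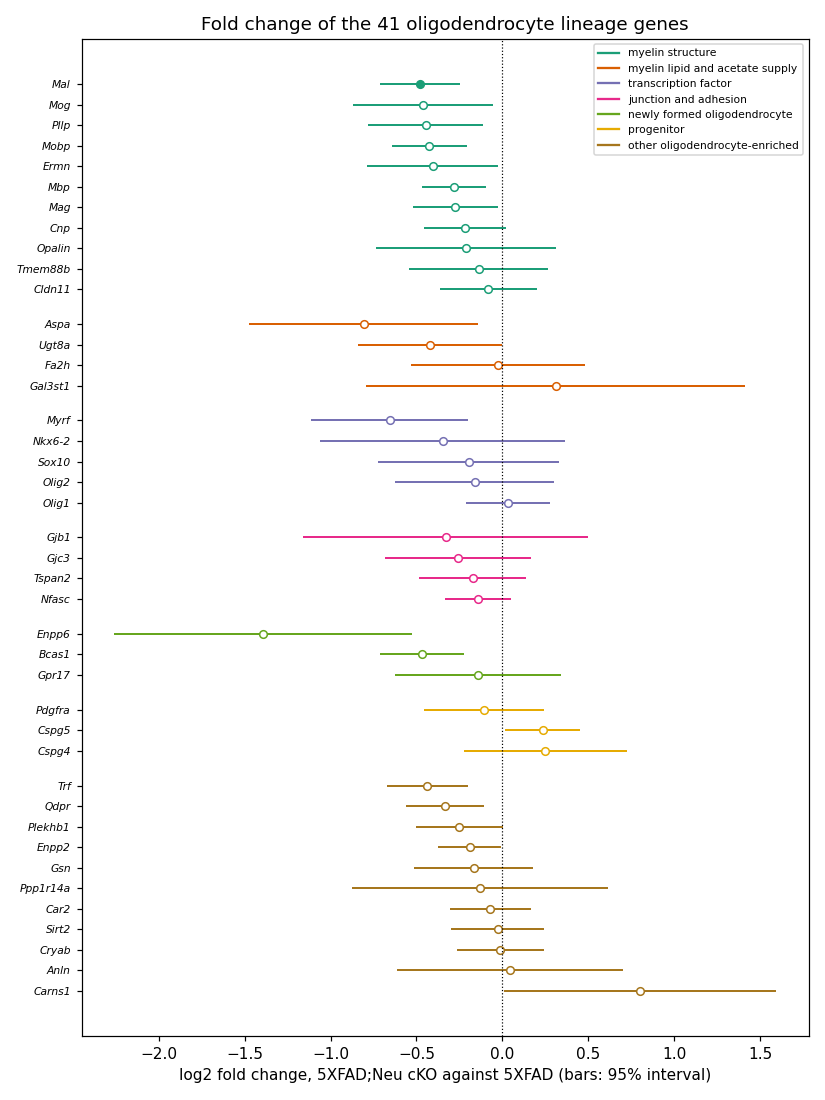
Log2 fold change of each of the 41 genes between libraries labelled 5XFAD;Neu cKO and 5XFAD (x axis), with the 95% interval from edgeR as a bar, in blocks by role and ordered by size within each block (y axis). The filled point is Mal, the one gene with an adjusted p under 0.05, and 35 of the 41 points lie to the left of 0.

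The 11 structural genes of myelin all had a log2 fold change below 0, with a median of -0.28, and 7 of them were lower at an unadjusted p under 0.05, a count that was 3 without 5XFAD replicate 2. Mal encodes a small proteolipid that sorts proteins and lipids into myelin membrane. It lies on chromosome 2, 127475142 to 127498615 on the reverse strand (GRCm39). In the order of replicates 1 to 5, which is kept for all library values here, Mal stood at 123, 166, 98.1, 126 and 135 CPM in the libraries labelled 5XFAD and 119, 95.1, 94.3, 77.2 and 78.6 CPM in those labelled 5XFAD;Neu cKO. All 5 libraries labelled 5XFAD;Neu cKO lay below the 5XFAD median and 4 lay below the lowest 5XFAD library, with replicate 1 overlapping. The means were 92.7 ± 16.7 CPM in 5XFAD;Neu cKO and 129.6 ± 24.4 CPM in 5XFAD (mean ± SD, n = 5). Mal fell by 0.48 on the log2 scale (SE 0.11, 95% interval -0.71 to -0.25), with an adjusted p of 0.0427 in edgeR's quasi-likelihood test, 0.0370 in DESeq2 and an unadjusted exact permutation p of 0.0159. This call was close to the threshold. With 1 library left out, Mal passed in 2 of 10 fits, those without 5XFAD replicate 3 and without 5XFAD;Neu cKO replicate 1, and its adjusted p reached 0.350 without 5XFAD replicate 2.

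Mobp, an abundant protein of the compact myelin's cytoplasmic faces, lies on chromosome 9, 119973770 to 120011273 on the forward strand (GRCm39). Its level was 251, 397, 269.5, 257 and 265 CPM in the libraries labelled 5XFAD and 280.2, 209, 229, 186 and 166 CPM in those labelled 5XFAD;Neu cKO. Of the 5 libraries labelled 5XFAD;Neu cKO 4 lay below every 5XFAD library, and 5XFAD replicate 2 stood far above the rest of its group. Mobp had a log2 fold change of -0.43 ± 0.11 (SE), with an adjusted p of 0.0662 in edgeR and 0.290 in DESeq2 and an exact permutation p of 0.0397.

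The promoters of Mal and Mobp are shown because these are the structural genes with the lowest p-values and because the Mobp window stood out from every other promoter searched. Each runs 5′ to 3′ over the 250 bases before the start of transcription, from RefSeq on GRCm38.p6, at chr9:120149492-120149741 on the forward strand for Mobp and at chr2:127656696-127656945 on the reverse strand for Mal. Capitals mark ACAAAG, a core word bound by SOX factors, or its reverse complement CTTTGT.
Mobp: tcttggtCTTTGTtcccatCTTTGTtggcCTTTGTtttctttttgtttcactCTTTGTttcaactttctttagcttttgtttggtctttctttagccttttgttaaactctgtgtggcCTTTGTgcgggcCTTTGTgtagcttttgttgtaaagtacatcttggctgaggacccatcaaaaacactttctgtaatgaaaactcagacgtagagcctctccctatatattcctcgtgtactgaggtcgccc
Mal: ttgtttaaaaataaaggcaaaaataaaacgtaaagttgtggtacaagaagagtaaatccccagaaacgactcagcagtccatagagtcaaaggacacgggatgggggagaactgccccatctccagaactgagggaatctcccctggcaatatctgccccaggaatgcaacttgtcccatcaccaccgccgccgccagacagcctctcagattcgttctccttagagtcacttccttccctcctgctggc
The Mobp window held 6 copies, lying 243 to 120 bases before the start, and Mal held 0. No other promoter among 32851 held 6 copies. RefSeq promoters were matched for 28 of the 41 genes, as 40 windows of 300 bases that also cover 50 bases after the start. ACAAAG or CTTTGT was in 22.5% of these 40 windows and in 18.7% of all promoters, and ACAATG or CATTGT in 20% and 12.6%. The E-box words that OLIG factors can bind were present in 25% of the 40 windows for CAGATG (either strand), against 17.2% of all promoters, and in 12.5% for CAGCTG, against 16.3%. The words CTGGCAC and CTGGTAC, which resemble MYRF sites, were in 10% and 2.5% of the windows, against 5.01% and 2.24% of all promoters. Windows of 1 gene can overlap, so a site can be counted more than once. Overlapping Mag windows both held CTGGCAC and ACAAAG (either strand), and overlapping Gal3st1 windows both held ACAATG (either strand). These shares describe letters in the windows, and binding was not measured.

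Mbp, myelin basic protein, which binds the cytoplasmic faces of the membrane together, had the highest CPM of the 41 genes in every library and made up 27.1% to 33.1% of their summed CPM. It stood at 1327, 1368, 1217, 1225 and 837 CPM in 5XFAD and 1247, 939, 1015, 864 and 850.4 CPM in 5XFAD;Neu cKO. The 2 lowest of the 10 libraries came from different groups, 5XFAD replicate 5 and 5XFAD;Neu cKO replicate 5, and the groups overlapped. The log2 fold change of Mbp was -0.28 ± 0.09 (SE, 95% interval -0.46 to -0.10), with an adjusted p of 0.270 in edgeR. The exact permutation p of 0.159 was larger than the unadjusted 0.00248 of edgeR, whose spread is estimated with the help of all genes.

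Pllp, plasmolipin, a membrane protein of the same family as Mal, was measured at 33.7, 47.6, 25.9, 35.8 and 31.2 CPM in 5XFAD and 29.9, 24.3, 28.0, 21.4 and 23.8 CPM in 5XFAD;Neu cKO. All 5XFAD;Neu cKO libraries lay below the 5XFAD median. Its log2 fold change was -0.45 ± 0.16 (SE), with an adjusted p of 0.436 and an exact permutation p of 0.0317. Mog, a protein of the outermost myelin surface, was at 26.2, 30.7, 22.3, 20.9 and 18.4 CPM in 5XFAD and 13.8, 20.0, 24.7, 14.3 and 12.8 CPM in 5XFAD;Neu cKO. For Mog 3 of the 5 libraries labelled 5XFAD;Neu cKO lay below every 5XFAD library, with a log2 fold change of -0.46 ± 0.20 (SE) and an adjusted p of 0.528 in edgeR.

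Mag, an adhesion protein on the inner, axon-facing membrane, was counted at 101, 149.9, 93.5, 96.2 and 107 CPM in 5XFAD and 113, 81.7, 108, 72.4 and 75.6 CPM in 5XFAD;Neu cKO. Here 5XFAD replicate 2 was again far above its group, and 5XFAD;Neu cKO replicates 1 and 3 lay within the range of the 5XFAD libraries. Mag had a log2 fold change of -0.28 ± 0.12 (SE) with an adjusted p of 0.531, and without 5XFAD replicate 2 the fold change was -0.14. Ermn, a cytoskeletal protein of late differentiation, was at 34.1, 46.5, 30.6, 27.8 and 26.3 CPM in 5XFAD and 32.3, 12.3, 28.0, 20.0 and 31.3 CPM in 5XFAD;Neu cKO. Its 5XFAD;Neu cKO libraries spread from 12.3 to 32.3 CPM, and the fold change of -0.41 ± 0.19 (SE) had an adjusted p of 0.564. It was -0.24 without 5XFAD;Neu cKO replicate 2 and -0.26 without 5XFAD replicate 2. The other 4 structural genes did not pass an unadjusted p of 0.05. They were Cnp, the cyclic nucleotide phosphodiesterase that keeps cytoplasmic channels in myelin open, at -0.22 (95% interval -0.45 to 0.01), Opalin at -0.21, the tight junction protein Cldn11 at -0.08 and Tmem88b at -0.14 on the log2 scale. Opalin, Cldn11 and Tmem88b turned above 0 when single libraries were left out.

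**Figure D2:**
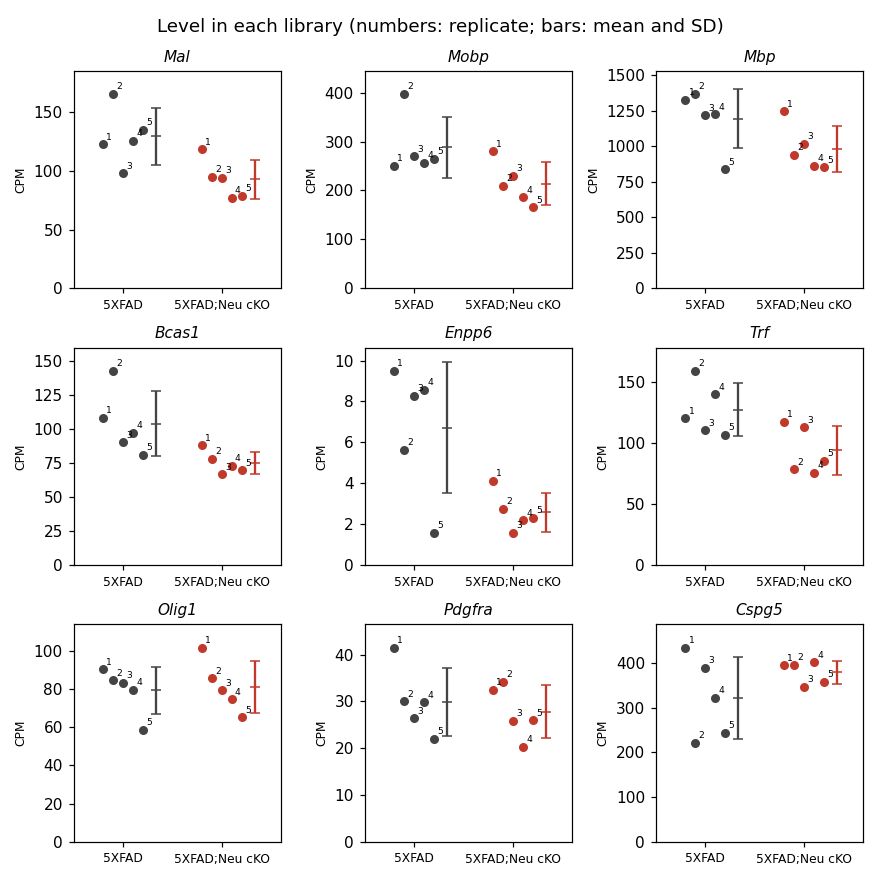
Level in CPM (y axis, linear from 0) of 9 genes in each library of the 2 labelled groups (x axis). Points run from replicate 1 to replicate 5 from left to right and carry the replicate number, and bars give the mean and SD of each group. Mal is lower in 4 of 5 libraries labelled 5XFAD;Neu cKO than in every 5XFAD library, while the groups overlap for Olig1 and Pdgfra.

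The 4 genes of myelin lipid synthesis and acetate supply had a median log2 fold change of -0.22, with 3 below 0 and 2 lower at an unadjusted p under 0.05. Aspa, which splits N-acetylaspartate and so frees acetate for lipid synthesis, was at 7.95, 11.0, 5.57, 10.1 and 15.3 CPM in 5XFAD and 7.66, 6.99, 7.09, 2.36 and 4.17 CPM in 5XFAD;Neu cKO. All 5XFAD;Neu cKO libraries were below the 5XFAD median, and 5XFAD replicate 3 lay among them. Aspa had a log2 fold change of -0.81 ± 0.33 (SE, 95% interval -1.47 to -0.15), with an adjusted p of 0.475 and an exact permutation p of 0.0556. Ugt8a, which makes galactosylceramide, the main galactolipid of myelin, stood at 15.5, 22.3, 20.6, 21.4 and 23.6 CPM in 5XFAD and 16.5, 20.2, 14.2, 9.42 and 17.0 CPM in 5XFAD;Neu cKO. Here 5XFAD replicate 1 lay among the 5XFAD;Neu cKO libraries and the other 4 lay above all of them, with a log2 fold change of -0.42 ± 0.21 (SE) and an adjusted p of 0.617. The remaining 2 genes of the group act beside Ugt8a. Fa2h, which hydroxylates the fatty acids of these lipids, was at -0.03 (95% interval -0.53 to 0.48), and Gal3st1, the sulfotransferase that makes sulfatide, was at 0.31 (-0.79 to 1.41). Gal3st1 was high in 1 library, at 8.60 CPM in 5XFAD;Neu cKO replicate 1, and its fold change without that library was -0.37.

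Among the 5 transcription factors the median was -0.20, and Myrf alone was lower at an unadjusted p under 0.05. Myrf switches on myelin genes as progenitors differentiate and is needed to maintain them afterwards. Its level was 19.4, 19.2, 15.2, 22.0 and 17.3 CPM in 5XFAD and 14.6, 11.8, 15.9, 9.25 and 7.47 CPM in 5XFAD;Neu cKO. All 5 libraries labelled 5XFAD;Neu cKO lay below the 5XFAD median and 4 below the lowest 5XFAD library. The means were 11.8 ± 3.52 CPM in 5XFAD;Neu cKO and 18.6 ± 2.54 CPM in 5XFAD (mean ± SD, n = 5), a log2 fold change of -0.66 ± 0.22 (SE, 95% interval -1.11 to -0.21), with an adjusted p of 0.353 and an exact permutation p of 0.0159.

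The factors that mark the whole lineage gave smaller values. Olig1, present from progenitor to mature cell, was at 90.5, 84.7, 83.3, 79.6 and 58.6 CPM in 5XFAD and 102, 85.7, 79.4, 74.7 and 65.2 CPM in 5XFAD;Neu cKO. The groups overlapped and the log2 fold change was 0.03 ± 0.12 (SE), with a 95% interval of -0.21 to 0.27. Olig2, which specifies the lineage, was at -0.16 (95% interval -0.62 to 0.29), and Sox10, its partner in activating myelin genes, at -0.20 (-0.72 to 0.32). Nkx6-2, a homeodomain factor of myelinating cells counted at under 8 CPM in every library, was at -0.35 (-1.05 to 0.36). Whether Myrf differed from Olig1 in its change was not tested.

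All 4 junction and adhesion genes had a log2 fold change below 0, with a median of -0.22, and none passed an unadjusted p of 0.05. Tspan2, a tetraspanin of the oligodendrocyte membrane, was at 40.3, 45.0, 37.6, 32.4 and 29.0 CPM in 5XFAD and 36.5, 30.5, 38.9, 24.9 and 32.5 CPM in 5XFAD;Neu cKO. The groups overlapped, with a log2 fold change of -0.17 ± 0.15 (SE) and an adjusted p of 0.876, and was -0.10 without 5XFAD replicate 2 and -0.09 without 5XFAD;Neu cKO replicate 4. Gjc3 and Gjb1, connexins of oligodendrocyte gap junctions, were at -0.26 (95% interval -0.68 to 0.16) and -0.33 (-1.15 to 0.49). Nfasc, neurofascin, which glia use at the paranode and neurons at the node, was at -0.14 (-0.33 to 0.05).

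The 3 markers of newly formed oligodendrocytes had the lowest median of the 7 roles, -0.47, and 2 of the 3 were lower at an unadjusted p under 0.05. The median was -0.33 without 5XFAD replicate 2, where that of the transcription factors was -0.29. Bcas1, found in premyelinating and early myelinating cells, lies on chromosome 2, 170188911 to 170269765 on the reverse strand (GRCm39). It was measured at 108, 143, 90.2, 97.3 and 81.2 CPM in 5XFAD and 88.1, 78.2, 66.8, 73.0 and 69.7 CPM in 5XFAD;Neu cKO. All 5XFAD;Neu cKO libraries lay below the 5XFAD median, and replicate 1 was the only one above the lowest 5XFAD library. The means were 75.1 ± 8.36 CPM in 5XFAD;Neu cKO and 104 ± 23.9 CPM in 5XFAD (mean ± SD, n = 5). Bcas1 had a log2 fold change of -0.47 ± 0.12 (SE, 95% interval -0.70 to -0.23), and its adjusted p was 0.0717 in edgeR and 0.0476 in DESeq2, with an exact permutation p of 0.0159.

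Enpp6, a choline phosphodiesterase used as a marker of cells that have just begun to differentiate, was at 9.50, 5.63, 8.29, 8.57 and 1.57 CPM in 5XFAD and 4.11, 2.76, 1.58, 2.19 and 2.30 CPM in 5XFAD;Neu cKO. In 4 of the 5 libraries labelled 5XFAD it stood above all 5XFAD;Neu cKO libraries, whereas 5XFAD replicate 5 was the lowest of the 10. The means were 2.59 ± 0.952 CPM in 5XFAD;Neu cKO and 6.71 ± 3.21 CPM in 5XFAD (mean ± SD, n = 5). Enpp6 had the most negative log2 fold change of the 41 genes, -1.39 ± 0.43 (SE, 95% interval -2.26 to -0.53), on low counts, with an adjusted p of 0.254 and an exact permutation p of 0.0556. Gpr17, a receptor of the stage between progenitor and premyelinating cell, was at -0.14 (95% interval -0.62 to 0.33), within the spread between libraries.

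The 3 progenitor genes had a median of 0.23, with 1 below 0 and none lower at an unadjusted p under 0.05, and the median was 0.12 without 5XFAD replicate 2. Pdgfra, the receptor through which platelet-derived growth factor drives progenitor division, was at 41.5, 30.0, 26.4, 29.8 and 22.0 CPM in 5XFAD and 32.5, 34.2, 25.9, 20.4 and 26.0 CPM in 5XFAD;Neu cKO. Its groups overlapped, with a log2 fold change of -0.11 ± 0.17 (SE) and a 95% interval of -0.45 to 0.23. Cspg4, the NG2 proteoglycan of the progenitor surface, was at 11.0, 9.39, 18.6, 11.0 and 11.2 CPM in 5XFAD and 18.9, 14.2, 14.2, 12.1 and 14.2 CPM in 5XFAD;Neu cKO. All 5XFAD;Neu cKO libraries lay above the 5XFAD median, 5XFAD replicate 3 was high, and the log2 fold change was 0.25 ± 0.23 (SE, 95% interval -0.22 to 0.72). It was 0.46 without 5XFAD replicate 3 and 0.15 without 5XFAD;Neu cKO replicate 1.

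Cspg5, a proteoglycan of progenitors that neurons and astrocytes also express, was at 434, 221, 389.7, 322 and 244 CPM in 5XFAD and 395, 396, 346, 402 and 358 CPM in 5XFAD;Neu cKO. The 5XFAD libraries spread far more widely than the 5XFAD;Neu cKO libraries, with 1 of them, replicate 1, above all others. The log2 fold change was 0.23 ± 0.10 (SE), with p-values of 0.0302 unadjusted and 0.545 adjusted in edgeR, and an exact permutation p of 0.214. It was 0.12 without 5XFAD replicate 2, 0.15 without 5XFAD replicate 5 and 0.36 without 5XFAD replicate 1. No test compared the progenitor genes with the genes of newly formed or myelinating cells.

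Of the 11 other oligodendrocyte-enriched genes, 9 had a log2 fold change below 0, with a median of -0.13. At an unadjusted p under 0.05, 4 were lower and 1 higher. Trf, transferrin, which oligodendrocytes make and which carries iron, lies on chromosome 9, 103081200 to 103107814 on the reverse strand (GRCm39) and was at 120.3, 159, 110.4, 140.0 and 107 CPM in 5XFAD and 118, 78.4, 113, 75.4 and 85.3 CPM in 5XFAD;Neu cKO. All 5XFAD;Neu cKO libraries lay below the 5XFAD median, and replicates 1 and 3 lay within the 5XFAD range. The means were 93.9 ± 19.9 CPM in 5XFAD;Neu cKO and 127 ± 21.9 CPM in 5XFAD (mean ± SD, n = 5), a log2 fold change of -0.44 ± 0.11 (SE), with an adjusted p of 0.0994 in edgeR and 0.0792 in DESeq2 and an exact permutation p of 0.0556. Qdpr, which regenerates tetrahydrobiopterin, was at 166, 169.9, 117, 133 and 114 CPM in 5XFAD and 140.4, 90.5, 117, 109 and 97.5 CPM in 5XFAD;Neu cKO. The log2 fold change of Qdpr was -0.33 ± 0.11 (SE), with an adjusted p of 0.332, and the groups overlapped.

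Enpp2, autotaxin, a secreted enzyme that makes lysophosphatidic acid, was at 258, 286, 259, 251 and 249 CPM in 5XFAD and 262, 177, 221, 229 and 250.2 CPM in 5XFAD;Neu cKO. The 5XFAD libraries lay close together apart from replicate 2, and 3 of the 5 libraries labelled 5XFAD;Neu cKO lay below them. Enpp2 had a log2 fold change of -0.19 ± 0.09 (SE), for which the adjusted p was 0.564, and it was -0.11 without 5XFAD;Neu cKO replicate 2. The choroid plexus also makes Enpp2 and Trf. Of 9 choroid plexus markers 5 had a log2 fold change below 0, with a median of -0.25, which was -0.12 without 5XFAD replicate 2. At an unadjusted p under 0.05, 1 was lower and 0 higher, beside 4.01% and 3.94% of all genes. The summed CPM of these markers ran from 48.1 to 95.6 in 5XFAD and from 20.4 to 156 in 5XFAD;Neu cKO. Ttr, the most abundant of them, was counted 125 to 489 and 58 to 925 times. The part of the choroid plexus in the values of Enpp2 and Trf was not tested.

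Plekhb1 stood at 106, 135, 81.9, 114 and 83.5 CPM in 5XFAD and 109, 82.2, 98.9, 63.8 and 82.6 CPM in 5XFAD;Neu cKO. The groups overlapped, and the log2 fold change of -0.25 ± 0.12 (SE) had an adjusted p of 0.617. It was -0.14 without 5XFAD replicate 2 and -0.16 without 5XFAD;Neu cKO replicate 4. Carns1, carnosine synthase, was the one higher at an unadjusted p under 0.05, at 2.33, 7.04, 3.26, 3.73 and 2.47 CPM in 5XFAD and 6.73, 9.93, 3.94, 5.05 and 7.04 CPM in 5XFAD;Neu cKO. All 5 libraries labelled 5XFAD;Neu cKO lay above the 5XFAD median, on low counts, and 5XFAD replicate 2 lay among them. Carns1 had a log2 fold change of 0.80 ± 0.39 (SE), with an adjusted p of 0.619 and an exact permutation p of 0.0556. The other 6 genes of the group did not pass an unadjusted p of 0.05. Gelsolin (Gsn) was at -0.17, the carbonic anhydrase Car2 at -0.07, Ppp1r14a at -0.13, the tubulin deacetylase Sirt2 at -0.03, the small heat shock protein Cryab at -0.01 and anillin (Anln) at 0.04 on the log2 scale. Of these, Gsn and Car2 kept their sign in every alternative fit.

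Several of the 41 genes overlap another gene on the opposite strand: Cnp with Dnajc7, Nkx6-2 with Inpp5a, Plekhb1 with Fam168a, Sirt2 with Nfkbib, Gpr17 with Lims2, Pllp with Gm45767 and Mog with Zfp57. The strand setting of the counting is not given in the sources used here, so reads of the partners may be mixed in these 7 genes.

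The libraries differed from one another in the same direction across many of the 41 genes. The highest value of a gene was in a 5XFAD library for 34 of the 41, of which 18 were in replicate 2 alone. That library also lay farthest from its group mean over 11065 genes. Its root mean squared deviation was 0.354 on the log2 scale, against 0.262 to 0.324 in the others. How many of all genes had their highest or lowest value in each library was not counted. The lowest value was in a 5XFAD;Neu cKO library for 25 genes, 11 of them in replicate 4, and in 5XFAD replicate 5 for 7. The library 5XFAD;Neu cKO replicate 1 held the highest value of 5 genes and the lowest of 0. Summed over the 41 genes, the level was 4014, 4332, 3698, 3791 and 3082 CPM in 5XFAD and 3938, 3087, 3370, 2986 and 2929 CPM in 5XFAD;Neu cKO. The groups overlapped through 5XFAD replicate 5, which was close to the 4 low libraries of the other group, and 5XFAD;Neu cKO replicate 1, which was as high as most 5XFAD libraries. The mean sum in 5XFAD;Neu cKO was 86.2% of that in 5XFAD, and 88.0% with Mbp left out. The mitochondrial share of reads moved with this sum from library to library. It was 23.5%, 24.7%, 23.3%, 25.1% and 20.9% in 5XFAD and 24.7%, 20.2%, 20.5%, 21.1% and 20.5% in 5XFAD;Neu cKO. The 5 libraries with the highest shares were those with the 5 highest sums of the 41 genes, and the libraries that stood apart from their group in the sum, 5XFAD replicate 5 and 5XFAD;Neu cKO replicate 1, stood apart in the share too. With the mitochondrial genes left out before normalization, 35 of the 41 genes were below 0 with a median of -0.20. The part of the mitochondrial share in the difference between the groups was not tested.

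**Figure D3:**
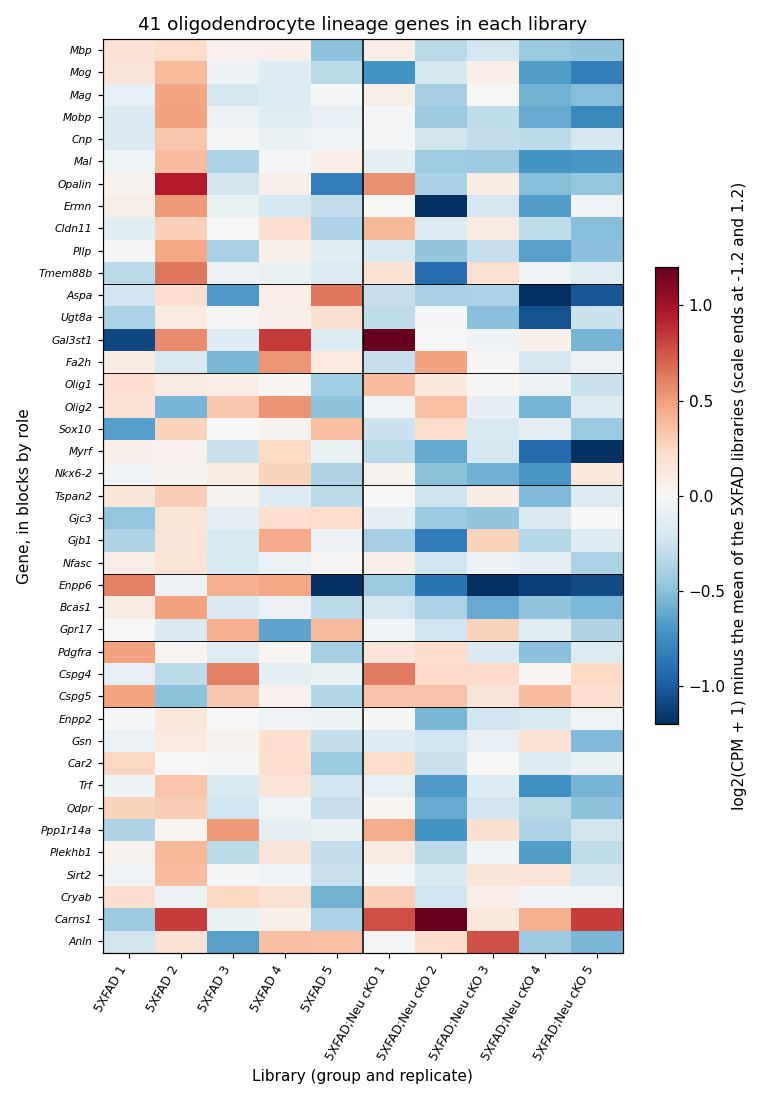
Level of the 41 genes (y axis, in blocks by role) in each of the 10 libraries (x axis), as log2(CPM + 1) minus the mean of the 5XFAD libraries, with blue for lower and red for higher values. The column of 5XFAD replicate 2 holds the highest value of 18 genes and that of 5XFAD;Neu cKO replicate 4 the lowest of 11.

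By role, the summed CPM in 5XFAD;Neu cKO was 80.7% of that in 5XFAD for the structural genes, 80.0% for the lipid and acetate genes, 93.0% for the transcription factors and 89.5% for the junction genes. It was 72.5% for the genes of newly formed oligodendrocytes, whose sum is mostly Bcas1, and 116% for the progenitor genes, whose sum is mostly Cspg5. Mbp made up most of the structural sum, Olig1 most of that of the transcription factors and Nfasc most of that of the junction genes. The groups overlapped for every one of these sums.

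Further genes of the same cells were read from lists that share none of the 41. Of 40 further oligodendrocyte genes, 28 had a log2 fold change below 0, with a median of -0.21. At an unadjusted p under 0.05, 7 were lower and 1 higher, with 0 past the adjusted threshold. Over all genes, 4.01% were lower and 3.94% higher at that p, shares that also stand beside the counts of the next lists. Without 5XFAD replicate 2, 4 of the 40 were lower and 1 higher, beside 621 and 640 of all 19061 genes in that fit. Of 15 further progenitor and committed-cell genes, 9 were below 0, with a median of -0.05 and 3 lower at that p. The 12 genes of myelin sphingolipid synthesis and turnover had a median of -0.08, with 3 lower (Sptlc1, Elovl1 and Elovl7) and 1 higher (Arsa) at an unadjusted p under 0.05. Sptlc1, a subunit of the enzyme that starts sphingolipid synthesis, was at 31.9 ± 3.83 CPM in 5XFAD;Neu cKO and 46.6 ± 7.67 CPM in 5XFAD (mean ± SD, n = 5). Its groups did not overlap, and its log2 fold change of -0.54 ± 0.14 (SE) had an adjusted p of 0.0994 in edgeR. It was named after its values were seen, as were Elovl1, Elovl7 and Arsa. Of 9 node and paranode partners, 6 were below 0, with a median of -0.13 and 2 lower at an unadjusted p under 0.05. The 6 genes of reactive oligodendrocytes, most of which microglia and astrocytes express too, were all below 0, with a median of -0.31 and 2 lower at that p.

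Markers of other cells moved between the same libraries. All 12 microglial markers had a log2 fold change below 0, with a median of -0.59, and 6 of them (Csf1r, Cx3cr1, C1qb, C1qc, Tyrobp and Ctss) fell past the adjusted threshold in edgeR. Their summed CPM ran from 479 to 703 in 5XFAD and from 326 to 409 in 5XFAD;Neu cKO, without overlap. Of 11 astrocyte markers, 10 were below 0, with a median of -0.10, and Gfap fell past the threshold, while their summed CPM overlapped at 4530 to 5273 and 4377 to 5005. Excitatory neuron markers had a median of -0.06, inhibitory neuron markers -0.04 and endothelial markers 0.02. Without 5XFAD replicate 2 the first was -0.02 and the last 0.05.

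The tissue taken with the cortex was read from markers of its neighbours. Striatal markers had a median of -0.03, which was 0.03 without 5XFAD replicate 2, with sums of 998 to 1289 CPM in 5XFAD and 929 to 1361 CPM in 5XFAD;Neu cKO. Of 8 tested markers of thalamus and hypothalamus, 5 were below 0, with a median of -0.75 and sums of 173 to 279 and 169 to 246 CPM, and Oxt fell past the adjusted threshold. At an unadjusted p under 0.05, 4 of the 8 were lower and 0 higher, beside 4.01% and 3.94% of all genes. The median was 0.07 without 5XFAD replicate 2, the library that was also highest in 18 of the 41 oligodendrocyte genes. In that fit 2 of these markers were still lower at an unadjusted p under 0.05, beside 621 of all 19061 genes. Markers of meninges had a median of 0.15, which was 0.06 without 5XFAD replicate 2, with sums of 619.6 to 972 and 483 to 802 CPM. Ptgds made up most of these sums and had a log2 fold change of -0.22, whereas 5 of the 7 markers were above 0. The part of these other cells and regions in the values of the 41 genes was not tested.

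**Figure D4:**
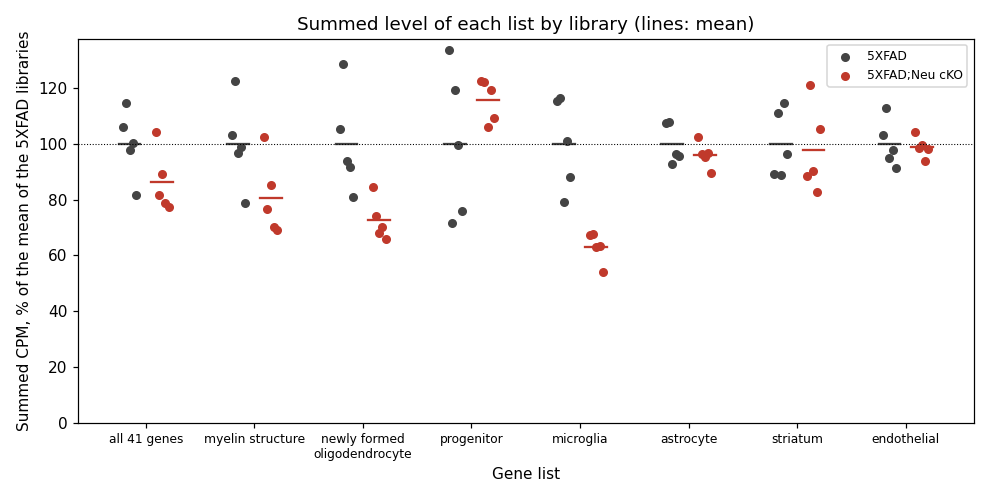
Summed CPM of all 41 oligodendrocyte lineage genes, of 3 of their roles and of 4 marker lists of other cells or regions (x axis), in each library as a percentage of the mean of the 5XFAD libraries (y axis). Points are libraries and short lines are group means. The sum of the 41 genes overlaps between the groups with a mean of 86.2% in 5XFAD;Neu cKO, whereas the microglial sums do not overlap, with a mean of 63.1%.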

How the data were processed

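Total RNA of cortex was made into QuantSeq 3′ libraries and sequenced as single reads. According to the submitters' processing notes, reads were aligned with STAR 2.7.3a to GRCm39 and counted per gene with HTSeq 0.9.1. The values the authors deposited are whole-number read counts per gene and library, with no normalization. Reads placed on no gene entered neither library sizes nor tests. Of all reads counted, ambiguous between genes or placed on no gene, they were 31.3% to 39.9% in 5XFAD and 34.4% to 38.2% in 5XFAD;Neu cKO. Symbols and gene positions came from the GENCODE annotation of GRCm39, used for names and places only, which named 52610 of the 53700 identifiers.

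The comparison used edgeR 4.0.16 under R 4.3.3, with TMM normalization, glmQLFit and glmQLFTest, and the group alone in the design. A total count over 10 was required of each gene, and p-values were adjusted by Benjamini-Hochberg over all of them with a threshold of 0.05. The biological coefficient of variation was 0.281. CPM used TMM library sizes, and SE is the log2 fold change divided by the square root of F. Exact two-sided permutation tests used all relabellings of the 10 libraries, with a smallest possible p of 0.00794. Alternatives were DESeq2 1.42.0, its size factors, other filters on low counts, a robust fit, removal of mitochondrial genes, a block for the replicate number and each library left out in turn. The permutation test of each gene and the counts at an unadjusted p without 5XFAD replicate 2 were added after the data were seen. The scripts were tested on simulated counts.

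The 41 genes and the other lists were chosen with earlier results of these data known, so no list was tested as a set. Values in every library are given for members past an unadjusted p of 0.05, the first gene of each role and the progenitor genes. For the other lists, medians and members past the adjusted threshold are given, with counts for some. A list of 5 Schwann cell genes, 1 of them Mbp, had a median of 0.15 over the 4 tested, with 2 below 0. No 2 libraries of a group were alike within sampling noise, with a chi-square of at least 5.72 per degree of freedom over 20 pairs.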

Additional observations from a re-analysis of the deposited data

Results flagged for a closer look

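A library of 1 group stood apart from the other 4 of its group for 10 of the 90 measures by group examined (the 41 genes, their summed level, depth and shares of reads), by a gap to its nearest neighbour that was large against the range of the group. Chance gives about 1 in 20 such groups if the measures are independent. Many of the 41 genes moved together from library to library, so 10 of 90 cannot be weighed against that share. Of the 8 genes, 5 were high in 5XFAD replicate 2: Mag at 149.9 CPM, Mobp at 397 CPM, Cnp at 92.4 CPM, Tmem88b at 36.4 CPM and Enpp2 at 286 CPM. Mbp was low in 5XFAD replicate 5, at 837 CPM. Cspg4 was high in 5XFAD replicate 3, at 18.6 CPM, and Gal3st1 in 5XFAD;Neu cKO replicate 1, at 8.60 CPM. The share of reads on no gene was high in 5XFAD;Neu cKO replicate 2, at 38.2%, and the mitochondrial share in 5XFAD;Neu cKO replicate 1, at 24.7%.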

How the results depend on the processing

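The count of genes past the adjusted threshold, 42 over all genes and 1 of the 41, moved with the processing. It was 73 and 2 with DESeq2, 103 and 5 with no filter on low counts, 32 and 0 with edgeR's filterByExpr, 46 and 2 with a robust fit, and 26 to 72 and 0 to 5 with 1 library left out. The 5 were Mbp, Mobp, Mal, Bcas1 and Trf with no filter and without 5XFAD;Neu cKO replicate 1. DESeq2's size factors and the removal of mitochondrial genes left 42 and 34 genes, with Mal the only member. The adjusted p of Mal was 0.0989 with filterByExpr. The count of members below 0 was 35 in all 7 of these fits that kept every library and in the fit with the replicate block, and 31 to 36 with 1 library left out. The median ran from -0.29 without 5XFAD;Neu cKO replicate 1 to -0.14 without 5XFAD replicate 2. The causes were not tested.

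With the replicate number as a block, 112 genes and 5 of the 41 (the same 5) passed, and the median was -0.18. Libraries with the same number did not deviate together, with correlations of -0.05 to 0.02 over 11065 genes. These deviations also hold the noise of each single library, so a weak pairing could go unseen. Whether the numbers pair the samples is not given in the labels. Cryab was at 0.0077 and Anln at -0.0075 with the block.

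With 1 library left out, the log2 fold change moved by over 1.5 times in at least 1 fit for 26 of the 41 genes and in none for 15, Mal, Mobp, Mbp, Bcas1, Trf, Myrf and Enpp6 among them. Mobp came close to that limit, at -0.29 without 5XFAD replicate 2 against -0.43 with all libraries. Without 5XFAD replicate 2 the adjusted p in edgeR was 0.492 for Mobp, 0.511 for Bcas1 and 0.477 for Trf. Of the 41 genes 30 kept their sign in every fit. With 1 library left out, the other 11 ranged from -0.44 to 0.11 for Opalin, -0.22 to 0.015 for Cldn11, -0.22 to 0.060 for Tmem88b, -0.37 to 0.66 for Gal3st1, -0.18 to 0.14 for Fa2h, -0.059 to 0.10 for Olig1, -0.20 to 0.035 for Pdgfra, -0.32 to 0.059 for Ppp1r14a, -0.089 to 0.074 for Sirt2, -0.13 to 0.050 for Cryab and -0.24 to 0.18 for Anln on the log2 scale. Depth limits the lowest members most, such as Gal3st1 with a total of 171 counts over 10 libraries.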
